A study of Mus musculus with 33 samples.

Results

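Ctla4 and 9 genes of T cells and leukocytes were followed in tongue and chondrocytes of mice with biallelic expression of Zac1 (Plagl1), an imprinted gene that is normally read from 1 parental allele. The 10 genes were Ctla4, Cd28, Icos, Cd3d, Cd3e, Cd3g, Cd4, Cd8a, Il2ra and Ptprc, and each was taken as the row of that name in the 4 deposited tables. Those tables list 27825 genes for each tongue stage and 25965 genes for the chondrocytes. The genes were chosen because Ctla4 had differed between genotypes in the newborn tongue and in the average of the tongue stages, so its tongue contrasts are given as a description without a test. For the other 9 genes the contrasts are tested, across all genes of a table. The question was whether Ctla4 differs together with the T cell genes or alone.

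Whole tongues were sampled at E13.5, P0 and P20 from wild type mice and from mice the labels call Zac1o knockout, whose Zac1 expression is biallelic, with 3 libraries per genotype and stage. Costal chondrocytes of the prehypertrophic gate (Cd24a+, Cd200+) came from E18.5 embryos, 6 of them biallelic and 5 wild type. No deletion or treatment shared by both genotypes, no strain and no sex is given in the sources used here. The allele acts in the whole animal, so tongue cells and immune cells carry it alike. RNA from E13.5 tongues was extracted with another kit than RNA from P0 and P20 tongues, so stage and extraction cannot be told apart.

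Ctla4, Cd28 and Icos are neighbouring genes that encode related receptors of T cells. CD28 and ICOS add activating signals to the T cell receptor, and CTLA-4 binds the ligands of CD28, CD80 and CD86, with higher affinity and restrains activation, above all on regulatory T cells. The CD3 chains carry the signal of the T cell receptor and are found in every mature T cell, while CD4 and CD8a mark the main T cell classes. Il2ra encodes the alpha chain of the interleukin 2 receptor, and Ptprc encodes CD45, which all nucleated blood cells bear. Cd4 and Ptprc alone do not mark T cells, since macrophages can express Cd4 and all leukocytes express Ptprc.

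Values are RPM, read counts scaled to the library's total, without correction for gene length, and the whole reads behind them were recovered. A tongue library had 36832717 to 92249098 reads in all, and a chondrocyte animal 2938462 to 15689559. A count of 3 reads, used as the detection floor, stood for 0.0325 to 0.0814 RPM in the tongues and 0.1912 to 1.0209 RPM in the chondrocytes. Such floors cover counting error only. Plagl1 was higher in every biallelic library than in every wild type library of its table, with log2 fold changes of 1.20, 1.03 and 1.30 from the E13.5 to the P20 tongue (SE 0.23, 0.10 and 0.17) and of 1.74 (SE 0.38) for chondrocytes. In a principal component analysis the libraries farthest from the rest were biallelic replicate 3 in both the E13.5 and the P20 tongue, wild type 2 and biallelic 1 in the newborn tongue, and wild type animals 7, 8 and 9 of the chondrocytes. Skeletal muscle and oral epithelium markers were present in all tongues.

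The Ctla4 row spans chromosome 1 from 60887000 to 60915832 on the plus strand of GRCm38 (ENSMUSG00000026011), and its bounds equal those of GENCODE M21. Both coding transcripts lie at its 3′ end. Ctla4-201 runs from 60909025 to 60915832 with 4 exons, and Ctla4-202 from 60909171 to 60914769 with 3 exons. The upstream start comes from Ctla4-203, a processed transcript of 4 exons with no coding sequence, which begins far upstream of Ctla4-201, at base 60887000. Between the third and the fourth exon of Ctla4-203, on the same strand, lies an annotated processed pseudogene, Rpl18-ps1, from 60900898 to 60901422. Such a pseudogene is a copy of a spliced mRNA that was inserted back into the genome. It overlaps no Ctla4 exon, starts 0.28 kb after the third exon of Ctla4-203 and ends 7.6 kb before the start of Ctla4-201. None of the 9 other members has a processed pseudogene inside its row in this annotation.

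**Figure D1:**
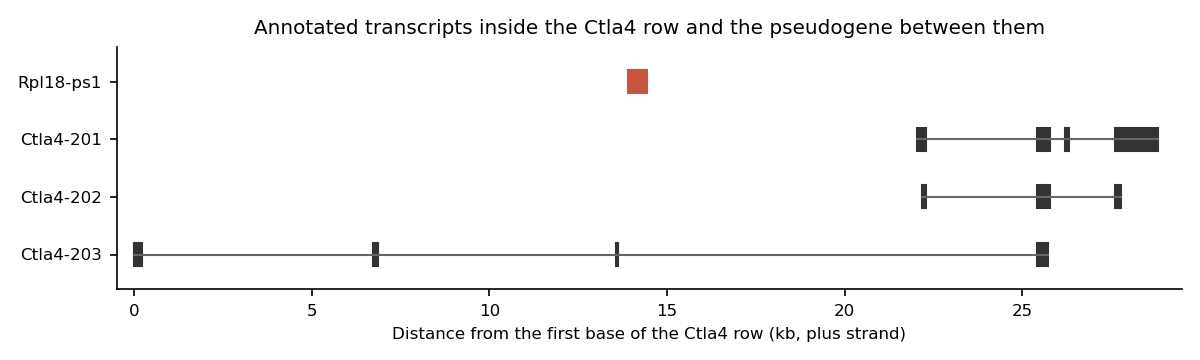
Annotated Ctla4 transcripts (dark boxes are exons, lines introns) and the pseudogene Rpl18-ps1 (red box) along the deposited Ctla4 row, in kb from the row's first base. The pseudogene sits in the last intron of Ctla4-203 and 7.6 kb upstream of the coding transcript Ctla4-201.

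The way reads of the Ctla4 row were counted, over exons or over the whole row, was not stated in these sources. Rpl18-ps1, of 525 bases, has no row of its own. Reads that lie in the pseudogene therefore cannot be told apart from reads of Ctla4 transcripts, and every Ctla4 value that follows is that of the row.

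In the E13.5 tongue the Ctla4 row stood at 2.15, 1.77 and 1.42 RPM in wild type libraries 1 to 3, and at 3.67, 2.85 and 4.14 RPM in the biallelic libraries. These values rest on 67 to 93 reads and 105 to 199 reads. All 3 biallelic libraries were above all 3 wild type libraries, with means of 3.56 ± 0.654 and 1.78 ± 0.366 RPM (SD, n = 3 each). At P0 the wild type libraries held 0.682, 0.608 and 0.542 RPM and the biallelic libraries 1.49, 1.35 and 1.16 RPM. The groups again did not overlap, on 42 to 50 and 72 to 90 reads. At P20 the wild type values were 2.05, 2.23 and 2.71 RPM and the biallelic values 2.76, 2.92 and 2.15 RPM. Here the groups overlapped, since biallelic replicate 3 lay below wild type replicates 2 and 3.

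The log2 fold changes of the Ctla4 row, biallelic minus wild type, were 1.0, 1.12 and 0.16 for the E13.5, P0 and P20 tongue (SE 0.29, 0.22 and 0.18), and 0.76 (SE 0.13) on average over the stages. Among all tested rows the biallelic libraries lay wholly above the wild type libraries for 2.89% at E13.5, 5.45% at P0 and 3.23% at P20. Nothing is read from Ctla4 against these shares, since the genes were chosen on this contrast. Leaving out 1 library at a time gave between 0.85 and 1.15 for E13.5, between 1.04 and 1.22 for P0 and between 0.07 and 0.29 for P20. Under log2(RPM + 1) the P0 value was 0.53, which understates a gene at this level.

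**Figure D2:**
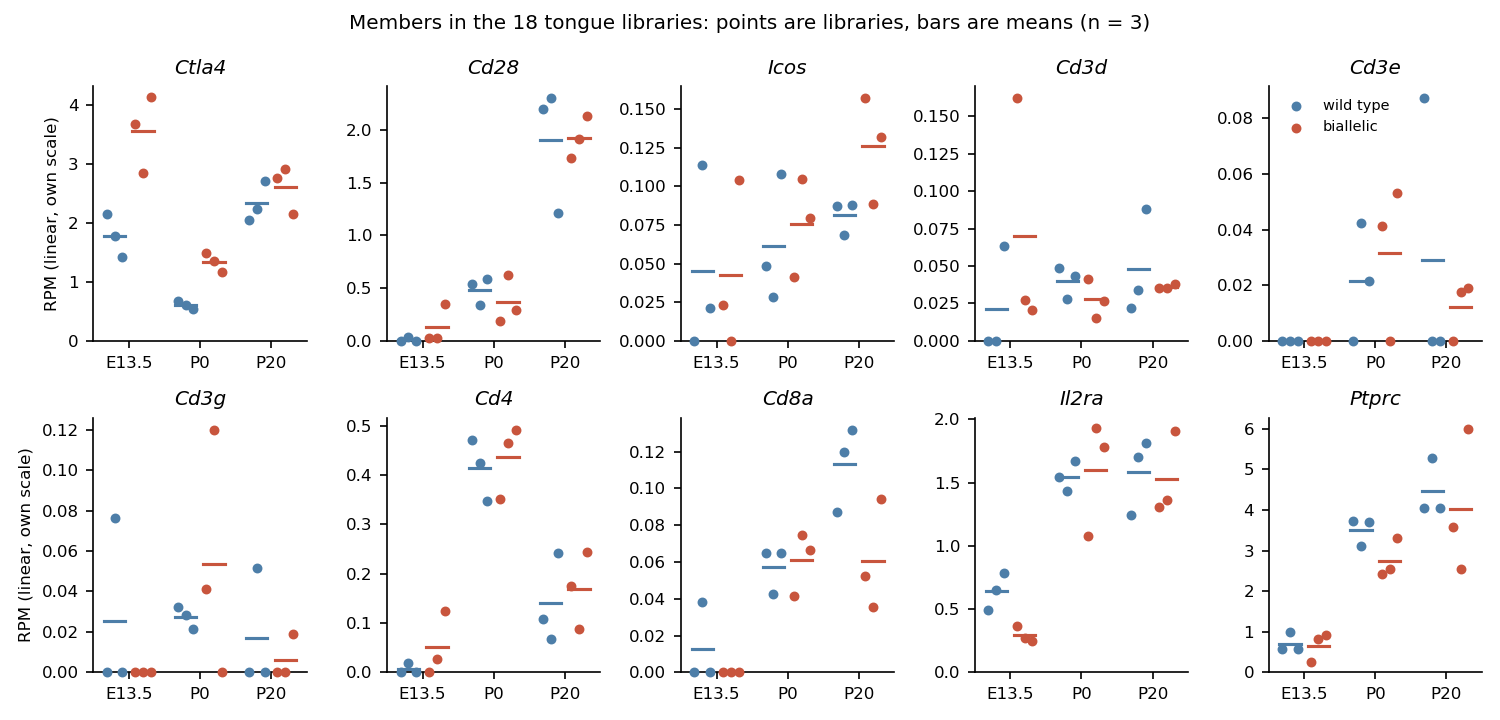
RPM of each of the 10 genes in the 18 tongue libraries, by stage and genotype, each panel on its own linear scale from 0; points are libraries and bars means of 3. The genotypes are fully separated for Ctla4 at E13.5 and P0, for Il2ra at E13.5 in the opposite direction and for Icos at P20, where the libraries hold 4 to 9 reads.

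The reads of the CD3 chains did not accompany those of the Ctla4 row. Cd3d, Cd3e and Cd3g together had no more than 7 reads per library at E13.5, 9 at P0 and 5 at P20. Over the 18 tongue libraries they summed to 80 reads against 1874 for the Ctla4 row. At E13.5 wild type replicate 1 held 83 reads in the Ctla4 row and none in the 3 CD3 genes, and biallelic replicate 3 held 199 reads and 1. A level per kb of annotated exon assumes that reads were counted over exons, which was not stated. Per kb of annotated exon, the Ctla4 row ranked first of the 10 genes in 5 of the 6 tongue groups, with 1.53 ± 0.281 RPM per kb in the biallelic E13.5 tongue (SD, n = 3). In wild type P0 tongue it ranked second, at 0.262 ± 0.030 RPM per kb beside 0.271 ± 0.0212 for Il2ra (SD, n = 3), a difference smaller than either SD. In the same biallelic E13.5 tongues Cd3d reached 0.0385 ± 0.0439 RPM per kb, and Cd3e and Cd3g had no read.

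**Figure D3:**
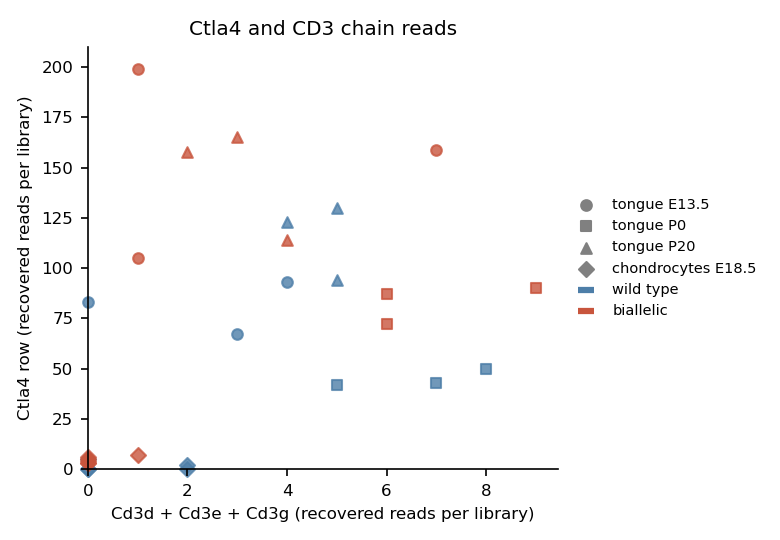
Reads of the Ctla4 row (vertical) against the summed reads of Cd3d, Cd3e and Cd3g (horizontal) in each of the 29 libraries or animals; colour gives the genotype and shape the table. Tongue libraries hold 42 to 199 Ctla4 row reads at no more than 9 CD3 reads, and chondrocyte animals lie near the origin.

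Cd28, the activating counterpart of Ctla4, was close to absent at E13.5 and increased with stage in both genotypes. At E13.5 its reads were 0, 2 and 0 in the wild type and 1, 1 and 17 in the biallelic libraries, so 1 library held nearly all of them. That was biallelic replicate 3, the outlying library of the stage. It also held 11 of the 11 Il7r reads, 7 of the 7 Cd2 reads and 6 of the 8 Cd4 reads of that stage, all genes of lymphoid cells, and their part in its Ctla4 value was not tested. At P0 Cd28 stood at 0.536, 0.339 and 0.585 RPM in the wild type and 0.186, 0.629 and 0.293 RPM in the biallelic libraries. At P20 it had reached 2.20, 2.30 and 1.21 RPM in the wild type and 1.73, 1.91 and 2.13 RPM in the biallelic libraries. The genotypes overlapped at both stages, and the log2 fold changes were -0.54 (SE 0.48) at P0 and 0.07 (SE 0.26) at P20 (limma, adjusted p = 1 for both). Leaving out 1 library gave -0.14 (without biallelic replicate 1) to -1.02 (without biallelic replicate 2) at P0, and turned the sign at P20 to -0.23 (without wild type replicate 3) and -0.01 (without biallelic replicate 3). Where Ctla4 was higher in all biallelic newborn tongues, Cd28 was therefore not.

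Icos, the inducible costimulator, stayed near the floor in the tongue. No library held more than 6 reads at E13.5, 10 at P0 or 9 at P20, too few to be tested at any stage. At P20 the 3 biallelic libraries held 9, 5 and 7 reads and each wild type library 4, so the groups did not overlap at 0.126 ± 0.0349 and 0.0814 ± 0.011 RPM (SD, n = 3 each). Biallelic libraries lay wholly above wild type ones for 3.23% of the rows tested at that stage. Each of these counts lies close to the floor of 3 reads.

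The CD3 genes, Cd4 and Cd8a did not separate the genotypes at any tongue stage, and at this depth a difference was not detectable for most of them. No tongue library held more than 8 reads of Cd3g, 7 of Cd3d, 4 of Cd3e or 7 of Cd8a, and Cd3e had no read in any E13.5 library, which allows up to 0.0814 RPM in the shallowest of them. Cd4, the coreceptor of helper and regulatory T cells, was highest at P0. There it stood at 0.471, 0.424 and 0.347 RPM in the wild type and 0.352, 0.464 and 0.492 RPM in the biallelic libraries. The log2 fold change was 0.07 (SE 0.28, limma adjusted p = 1) and the groups overlapped. At P20 Cd4 had 4 to 13 reads in the 6 libraries, with a log2 fold change of 0.35 (SE 0.62, adjusted p = 1). Both signs depended on single libraries, with -0.05 as the lowest P0 value (without wild type replicate 3) and -0.06 as the lowest P20 value (without wild type replicate 2). For whole tongue, fewer T cells and less RNA per cell cannot be told apart in any of these values.

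Il2ra, which marks activated and regulatory T cells, went the other way from Ctla4 at E13.5. It measured 0.492, 0.649 and 0.782 RPM in the wild type and 0.370, 0.271 and 0.250 RPM in the biallelic libraries, on 10 to 37 reads. All biallelic values were below all wild type values, as they were for 7.19% of the rows tested at that stage. The log2 fold change was -1.11 (SE 0.57) and did not pass the test (limma, adjusted p = 0.989). From P0 on Il2ra did not separate the genotypes. Its means were 1.55 ± 0.121 RPM in wild type and 1.60 ± 0.457 RPM in biallelic tongues at P0, and 1.58 ± 0.300 and 1.53 ± 0.331 RPM at P20 (SD, n = 3 each). The genotype effect on Il2ra was 1.11 (SE 0.41) higher at P0 than at E13.5 on the log2 scale, which did not pass the test either (adjusted p = 0.873).

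Ptprc, the general leukocyte gene, was lower on average in the biallelic tongues at each stage without passing the test. At P0 the wild type libraries held 3.72, 3.11 and 3.70 RPM and the biallelic libraries 2.42, 2.54 and 3.30 RPM, which overlap by 1 library. Its log2 fold change was -0.26 (SE 0.61) in the E13.5, -0.36 (SE 0.17) in the P0 and -0.22 (SE 0.30) in the P20 tongue (limma, adjusted p = 0.989, 1 and 1). The sign depended on single libraries at E13.5, where the highest value with 1 library left out was 0.33 (without biallelic replicate 1), and at P20, where it was 0.06 (without biallelic replicate 2). At P0 the value stayed between -0.49 and -0.27.

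Of the 9 genes other than Ctla4, 2 had enough reads to be tested at E13.5, 4 at P0 and 4 at P20, that is at least 10 reads in 3 of the 6 libraries. None was called at an adjusted p of 0.05, and none had an unadjusted p under 0.05. Limma called 0% of rows at each stage, 0 of 14066 at E13.5, 0 of 15549 at P0 and 0 of 15056 at P20, with 464, 487 and 362 rows at an unadjusted p under 0.05, and limma voom on the recovered reads called 0 as well. The count of 0 among the members thus equals the background. The tested members other than Ctla4 had median log2 fold changes of -0.68, -0.18 and 0.01, beside -0.05, 0.03 and -0.01 over all rows. In the average over the stages, where 3 of 13369 rows (0.0224%) were called, Il2ra stood at -0.39 (SE 0.17, adjusted p = 1, unadjusted p = 0.0344) and Ptprc at -0.28 (SE 0.23, adjusted p = 1).

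**Figure D4:**
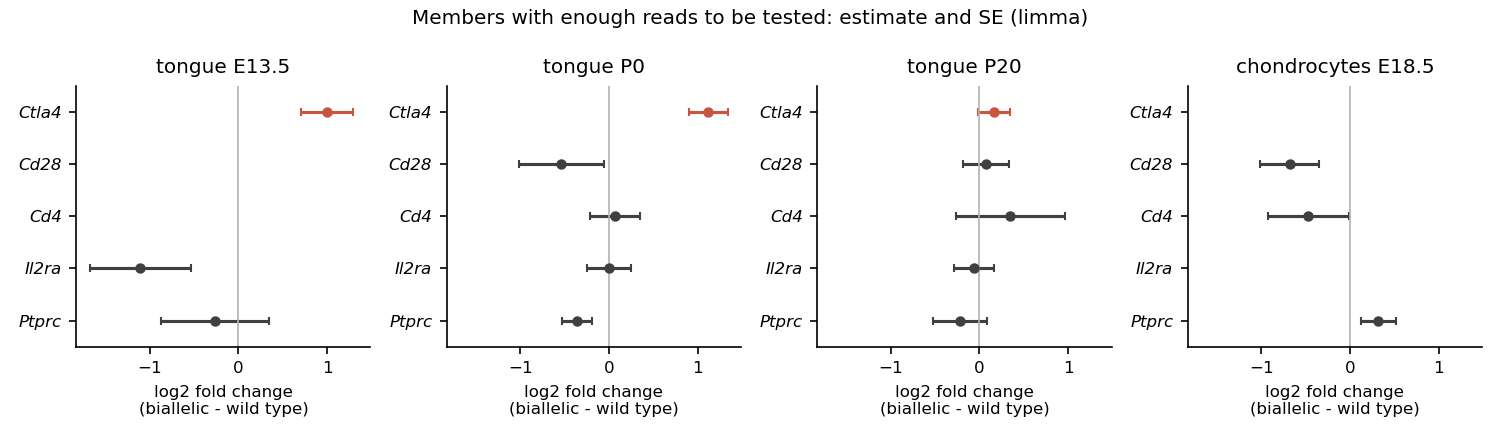
Log2 fold change, biallelic minus wild type, with its SE from limma, for the members with enough reads in each table; a missing point means too few reads. Ctla4 (red) lies at 1.0, 1.12 and 0.16 in the tongue, and the other members lie between -1.11 and 0.35 there.

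Library by library, the relation of the other members with the Ctla4 row could be tested only weakly. Over the 6 libraries of a stage, 21 correlations of log2 RPM could be formed. The smallest two-sided exact permutation p of Spearman's rho is 0.00278 with 6 libraries, and 0.0583 when multiplied by the 21 relations, so 1 such relation alone could not have passed. By Pearson's r 10 were positive, 10 negative and 1, with Cd8a at P0, at 0.0. The largest was with Il2ra at E13.5, where Pearson's r was -0.92 (exact permutation p = 0.0181, adjusted p = 0.380) and Spearman's rho -0.94 (exact permutation p = 0.0167, adjusted p = 0.351). Without the 2 libraries farthest from the median of the Ctla4 row, r was -0.78. With Ptprc r was -0.82 at P0 and -0.76 at P20 (exact permutation p = 0.0639 and 0.0764, adjusted p = 0.535 for both). At E13.5 and P0 the Ctla4 row divides the libraries by genotype, so these values hold the genotype difference, and 3 libraries per genotype are too few to test the relation within one.

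The 5 rows most like Ctla4 were sought among 13368 rows with enough reads at every tongue stage. They included no other member and no gene of the immune cell lists described below. Of the other members only Il2ra and Ptprc met this filter. Cd28, Icos, the CD3 genes, Cd4 and Cd8a could therefore appear at no rank. Likeness was Pearson's r of log2 RPM over the 18 tongue libraries with the mean of each stage removed. It serves as a description, since all rows share the libraries and the genotype division. The 5 highest were Gm4294 (0.83), Eif3f (0.79), Gm11808 (0.79), Rprd1b (0.78) and Pla2g12a (0.78). Eif3f encodes a subunit of a translation initiation factor. Plagl1 itself ranked 14th at 0.72. Ptprc ranked 12011th (-0.37) and Il2ra 13216th (-0.58), near the end opposite to Ctla4, and Phactr2, a neighbour of Plagl1, came last at -0.93.

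The row most like Ctla4, Gm4294, is annotated as a processed pseudogene, while Eif3f, Gm11808, Rprd1b and Pla2g12a are annotated as protein coding. Gm4294 was 99.8% identical to an mRNA of Rpl15, a gene of the large ribosomal subunit. Gm4294 was at 18.7 ± 2.31 RPM in biallelic and 11.9 ± 1.44 RPM in wild type tongue at E13.5, and at 3.17 ± 0.66 and 1.99 ± 0.276 RPM at P0 (SD, n = 3 each). In neither stage did the groups overlap, and biallelic libraries lay wholly above wild type ones for 2.89% and 5.45% of the tested rows. Nothing is read from this, since Gm4294 was chosen for its likeness to Ctla4, which divides the genotypes at both stages. At P20 Gm4294 stood at 6.63 ± 0.907 and 6.70 ± 0.823 RPM (SD, n = 3 each). Gm11808, chosen in the same way, had log2 fold changes of 0.55, 0.75 and 0.15 at the 3 stages. Rpl15 itself had log2 fold changes of 0.27, 0.07 and -0.27 (SE 0.14, 0.15 and 0.13), each below the 0.65, 0.66 and -0.02 of Gm4294, a difference that was not tested.

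With the mean of each genotype removed as well, r with the Ctla4 row over the 18 tongue libraries was 0.76 for Pla2g12a and 0.70 for Eif3f, but 0.32 for Gm4294, 0.15 for Gm11808 and 0.12 for Rprd1b. The likeness of the last 3 thus lay mostly in the difference between genotypes, and that of Pla2g12a and Eif3f also in differences between libraries of 1 genotype. Eif3f measured 35.0 ± 3.24 RPM in wild type and 40.9 ± 5.48 RPM in biallelic tongues at E13.5, where the genotypes overlapped (SD, n = 3 each). The part of pseudogene reads in the Ctla4 row was not tested.

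**Figure D5:**
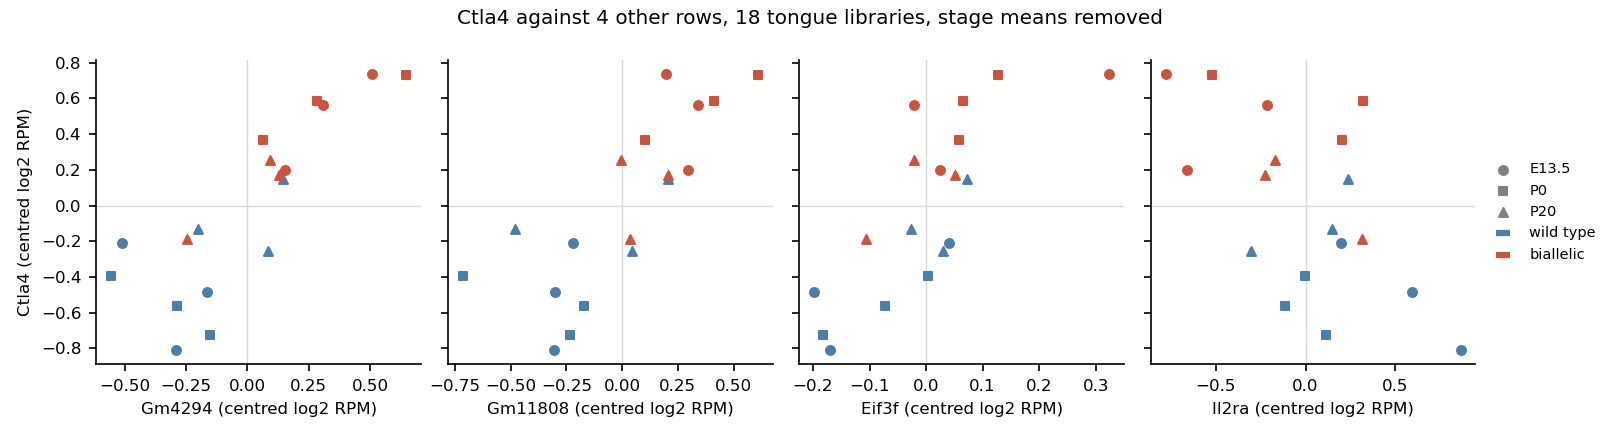
Ctla4 row against Gm4294, Gm11808, Eif3f and Il2ra in the 18 tongue libraries, log2 RPM with the stage mean removed; colour gives the genotype and shape the stage. The Ctla4 row rises with Gm4294 (r = 0.83), Gm11808 (0.79) and Eif3f (0.79) and falls with Il2ra (-0.58).

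Processed pseudogene rows as a class were mostly higher in the biallelic tongues at E13.5 and P0, and mostly lower at P20. At E13.5, 67 of the 90 such rows tested were higher in the biallelic tongues (74.4%, median log2 fold change 0.26), beside 40.1% of all rows (median -0.05). At P0 it was 61 of 71 (85.9%, median 0.27), beside 58.6% of all rows (median 0.03). At P20 it was 33 of 91 (36.3%, median -0.05), beside 45.3% (median -0.01). In the chondrocytes it was 34 of 101 (33.7%, median -0.26), beside 40.8% of all rows (median -0.11). This class was chosen after values had been seen, and its rows share libraries and parent genes, so the counts are a description.

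No gene around Ctla4 was called at any stage, and at E13.5 most of them had too few reads to be tested. Cd28 ends 113.6 kb before the Ctla4 row and Icos begins 62.1 kb after it. Between Cd28 and Ctla4 the tables list Gm11579, with at most 1 read in any library, and 2310016D23Rik, a noncoding row 83.2 kb away. The latter had log2 fold changes of -1.04 (SE 0.64) at P0 and 0.14 (SE 0.16) at P20 (limma, adjusted p = 1 for both). Beyond Icos, Gm11587 had at most 2 reads in any tongue library, and 9530026F06Rik stood at -0.22 (SE 0.74), 0.34 (SE 0.19) and -0.05 (SE 0.21) from E13.5 to P20 (limma, adjusted p = 0.992, 1 and 1). At P0 its biallelic libraries, at 1.20 to 1.22 RPM, lay wholly above the wild type libraries, at 0.856 to 1.09 RPM, as did those of Ctla4 and of 5.45% of the rows tested at that stage.

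The promoter of the coding Ctla4 transcript is shown because its start lies downstream of the pseudogene. RefSeq (GRCm38.p6) gave windows of 250 bases before to 50 after the start for 7 of the 10 genes, 8 windows in all. The Ctla4 window is chr1:60908775-60909074 on the plus strand, with 42.0% G and C. The palindrome GGGGCCCC, part of the GC-rich motif to which ZAC1 is known to bind, was searched on both strands. It occurs in 1.08% of the 32851 RefSeq windows and, among the members, only in that of Cd3g, chr9:44980382-44980681 on the minus strand. The AT-rich run TATATAA occurs on either strand in 3.24% of windows, and among the members in those of Ctla4 and Ptprc. In the Ctla4 window it covers bases 39 to 45 of the transcript, counted from 1 at the start site, downstream of where a TATA box lies. Capitals mark TATATAA in the Ctla4 line and GGGGCCCC in the Cd3g line.
Ctla4: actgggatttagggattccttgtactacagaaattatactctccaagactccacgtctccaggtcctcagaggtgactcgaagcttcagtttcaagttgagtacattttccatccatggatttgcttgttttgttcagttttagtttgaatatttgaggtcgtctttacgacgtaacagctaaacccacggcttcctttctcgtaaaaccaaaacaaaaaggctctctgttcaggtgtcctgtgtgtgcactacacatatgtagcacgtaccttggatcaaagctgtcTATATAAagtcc
Cd3g: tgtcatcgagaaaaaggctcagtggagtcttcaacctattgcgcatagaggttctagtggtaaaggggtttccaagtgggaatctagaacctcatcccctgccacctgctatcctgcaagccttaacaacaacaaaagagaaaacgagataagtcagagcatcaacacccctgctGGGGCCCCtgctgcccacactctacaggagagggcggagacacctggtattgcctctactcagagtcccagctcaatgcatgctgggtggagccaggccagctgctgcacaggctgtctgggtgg
A match is a string of letters and says nothing of binding, and Cd3g had at most 8 reads in any tongue library.

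Costimulation genes beyond the members were measured with their ligands. Of the 16 genes listed beside Ctla4, which include Cd28 and Icos, 9 could be tested at E13.5 (4 higher, 5 lower, median -0.13), 11 at P0 (4 higher, 7 lower, median -0.12) and 11 at P20 (6 higher, 5 lower, median 0.07), and none was called. Cd86, a ligand that CD28 and CTLA-4 share, stood at 1.56 ± 0.335 RPM in wild type and 1.30 ± 0.116 RPM in biallelic tongues at P0 (SD, n = 3 each), and its log2 fold change was -0.24 (SE 0.21, limma adjusted p = 1). Icosl, the ligand of ICOS, was at -0.29 (SE 0.48), -0.19 (SE 0.24) and -0.18 (SE 0.16) across the stages (adjusted p = 0.989, 1 and 1).

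The T cell receptor complex and its proximal signalling gave no call either. Of 22 genes listed, 21 are in the tongue tables, of which 5, 11 and 9 could be tested at E13.5, P0 and P20, with medians of -0.07, -0.16 and -0.05. Most of the level came from Fyn, a kinase many cells express, at 92.2 ± 12.0 RPM in wild type and 111 ± 17.8 RPM in biallelic tongues at P0 (SD, n = 3 each). The T cell kinase gene Lck had 75 to 77 reads in the wild type and 92 to 123 in the biallelic libraries at E13.5, groups that do not overlap, as for 2.89% of the rows tested at that stage. Its log2 fold change was 0.54 (SE 0.32, limma adjusted p = 0.989). Zap70, the kinase that binds the phosphorylated CD3 chains, separated the other way at E13.5, on too few reads to be tested. It stood at 0.129 to 0.229 RPM in wild type and 0 to 0.0416 RPM in biallelic libraries. Among the rows tested at that stage, 7.19% lay wholly lower in the biallelic libraries. Trac, the constant region of the T cell receptor alpha chain, had at most 4 reads in any tongue library, and Trbc2 at most 3.

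T cell transcription factors and homing genes, the interleukin 2 pathway and the genes that move CTLA-4 between membranes also had no call at any tongue stage. Their medians were 0.15, 0.02 and -0.07 at E13.5, 0.00, 0.00 and 0.09 at P0, and -0.22, 0.09 and -0.05 at P20. In the first list 7 tested genes were higher and 1 lower at E13.5, 4 and 4 at P0, and 2 and 7 at P20. Among all tested rows 40.1%, 58.6% and 45.3% were higher. Tcf7 stood at 0.716 to 1.08 RPM in biallelic and 0.515 to 0.613 RPM in wild type libraries at E13.5. At P0 it stood at 2.66 to 2.9 and 2.25 to 2.6 RPM. Its genotypes did not overlap at these stages, as for 2.89% and 5.45% of the rows tested, and overlapped at P20. The log2 fold changes of Tcf7 were 0.66 (SE 0.45), 0.19 (SE 0.15) and -0.22 (SE 0.44) from E13.5 to P20. Bcl11b, which skin and nerve cells express as well as T cells, led the first list at 31.0 ± 0.825 RPM in biallelic and 28.0 ± 1.79 RPM in wild type tongue at E13.5 (SD, n = 3 each). Its biallelic libraries, at 30.1 to 31.6 RPM, lay wholly above the wild type ones, at 26.4 to 30.0 RPM, as for 2.89% of the rows tested. Jak1 led the second, and Lrba, which protects CTLA-4 from degradation, led the third at each stage, at 77.3 ± 2.61 and 72.3 ± 5.40 RPM at P0 (SD, n = 3 each).

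Markers of other leukocytes were measured beside these values. All 7 pan-leukocyte genes were tested at each stage, with medians of 0.03, -0.07 and -0.17, and none was called. Macrophage markers had medians of 0.11, -0.20 and -0.15, and at P0 all 10 were lower without a call. Their summed level at P0 was 54.1 to 64.4 RPM in wild type and 48.1 to 55.2 RPM in biallelic libraries. B cell markers summed to no more than 3.30 RPM in any tongue library, and markers of NK and innate lymphoid cells to no more than 0.284 RPM.

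In the sorted chondrocytes the Ctla4 row was at the floor. Biallelic animals 1 to 6 held 3, 5, 3, 4, 7 and 6 reads, and wild type animals 7 to 11 held 0, 0, 0, 2 and 5 reads. The biallelic libraries were deeper, with 7221013 to 15689559 reads against 2938462 to 7887305, and in RPM the groups overlapped, at 0.196 to 0.969 and 0 to 1.70 RPM. A count of 0 allows up to 0.383, 0.518 and 0.434 RPM in wild type animals 7, 8 and 9. No comparison of Ctla4 was detectable at this depth.

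The same samples held much Ptprc and some Cd28 but almost no CD3. Ptprc reached 336 to 482 RPM (median 418) in biallelic animals, beside 234 to 543 RPM (median 288) in wild type ones, and was thereby the highest member per kb. Cd28 had 118 to 234 reads in biallelic and 56 to 242 in wild type animals, at 7.79 to 28.1 RPM (median 14.6) and 19.1 to 35.0 RPM (median 20.4). Cd4 was at 1.32 to 6.37 RPM (median 3.12) and 2.28 to 5.93 RPM (median 3.97). The 3 CD3 genes had 5 reads in all over the 11 animals, and Cd8a had 1. Icos had 0 to 18 reads and Il2ra 0 to 15, and the genotypes overlapped for each gene.

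None of the 3 members tested in the chondrocytes passed. Their log2 fold changes were -0.68 (SE 0.33) for Cd28, -0.47 (SE 0.46) for Cd4 and 0.32 (SE 0.20) for Ptprc (limma, adjusted p = 0.441, 0.660 and 0.513). With each library centred on its median they were -0.45, -0.24 and 0.55. Over all 11088 rows tested the median was -0.11, and limma and voom called 0 (0%), with 1292 rows at an unadjusted p under 0.05. Wild type animals 7, 8 and 9 stood apart, and without them Cd28 was at -0.46, Cd4 at -0.01 and Ptprc at -0.17, so that the sign of Ptprc turned. Macrophage markers summed to 5895.4 to 6984.4 RPM per biallelic and 3533.6 to 6280.3 RPM per wild type animal, and all 10 were measured. Neutrophil markers summed to 66.6 to 207 RPM per biallelic and 109 to 1842.2 RPM per wild type animal. All 6 of the neutrophil markers tested were lower on average in the biallelic animals (median log2 fold change -3.85), 5 of them at an unadjusted p under 0.05 and none called. The wild type animals differed widely among themselves. S100a9 ranged from 2.38 to 631 RPM in wild type and from 1.34 to 33.8 RPM in biallelic animals, so the genotypes overlapped. S100a8, which neutrophils express at a high level, had the log2 fold change -1.82 (SE 0.46, limma adjusted p = 0.425). The 4 mast cell markers tested were also lower (median -2.78), with none called. Chondrocyte markers summed to 362 to 934 and 218 to 572 RPM, below the macrophage markers in every animal, although the gate and the label are those of chondrocytes. The part of these cells in the Ptprc, Cd4 and Cd28 values was not tested.

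Among the costimulation genes of the sorted cells the ligands were abundant. Cd274, which encodes PD-L1, stood at 681 ± 144 RPM with biallelic (SD, n = 6) and 505 ± 161 RPM with wild type genotype (SD, n = 5), and Cd86 at 171 ± 18.1 and 138 ± 43.8 RPM. Of the 10 tested genes of this list 7 were higher and 3 lower, with a median of 0.41 and no call. Tnfrsf18, which encodes the costimulatory receptor GITR, was the lowest of them, at 2.17 ± 0.947 RPM in biallelic (SD, n = 6) and 7.42 ± 6.10 RPM in wild type animals (SD, n = 5), and its log2 fold change was -1.54 (SE 0.55, limma adjusted p = 0.425). Tnfrsf9, an inducible costimulatory receptor, was at 266 ± 56.8 (SD, n = 6) and 199 ± 125 RPM (SD, n = 5), and its log2 fold change was 0.61 (SE 0.33, limma adjusted p = 0.454). Foxp3, the factor of regulatory T cells, had 8 to 61 reads per animal, but its row overlaps the genes Ppp1r3f, Flicr and Ccdc22, and the library method used there does not mark strand. Il7r, the receptor of interleukin 7, was at 149 ± 24.3 (SD, n = 6) and 109 ± 58.1 RPM (SD, n = 5), with a log2 fold change of 0.61 (SE 0.29, adjusted p = 0.435).

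Across stages and tissues the members kept different orders. Within the wild type tongue the Ctla4 row was lowest at P0 (0.610 ± 0.0699 RPM) and higher at E13.5 (1.78 ± 0.366 RPM) and at P20 (2.33 ± 0.342 RPM, SD, n = 3 each). Cd28 ran from 0.0127 ± 0.022 RPM at E13.5 over 0.487 ± 0.130 at P0 to 1.91 ± 0.602 RPM at P20, and Ptprc from 0.711 ± 0.243 over 3.51 ± 0.345 to 4.46 ± 0.701 RPM (SD, n = 3 each). Cd4 was highest at P0, at 0.414 ± 0.0625 RPM, and Il2ra was alike at P0 and P20 within its SD. The low point of the Ctla4 row at P0 was shared by Gm4294 and by the protein coding rows Gm11808 and Rpl15, but not by Eif3f or Pla2g12a. Rprd1b was alike at P0 and P20 within its SD. Il2ra and Ptprc, the other members with enough reads at all 3 stages, did not share the low point. These are levels without a test, and the chondrocyte table was made with other library and alignment methods.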

How the data were processed

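Per the submitters' processing notes, reads were trimmed with Trim Galore 0.4.2 and aligned to GRCm38, with TopHat2 2.1.0 named for tongue and HISAT2 for chondrocyte samples. The authors deposited log2 RPM values, 4 tables with 29 columns for 33 labelled samples, since 4 biallelic chondrocyte animals have 2 libraries in 1 column. The counter, exon and strand settings and annotation release were not given in the sources used here. A gene without reads was deposited as 0.9 reads. Within 0.05 of a read, all values below 1000 reads came out whole.

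Genes with at least 10 reads in 3 of 6 tongue libraries or 5 of 11 chondrocyte animals were tested with limma 3.58.1 (R 4.3.3), with a trend and no added pseudocount, biallelic minus wild type, and Benjamini-Hochberg adjustment at 0.05 over all rows. All 18 tongue libraries entered 1 fit for the average and for stage differences. The labels call the replicates biological, and every pair of libraries in a group differed by more than sampling noise (lowest chi-square per degree of freedom 7.28). The step was checked on simulated data. The members and the 15 gene lists were chosen with earlier results of these data known. The genes named are Plagl1, the members, of each list described the genes called or else some of the 2 with the highest mean, the 3 listed rows on either side of Ctla4 and the 5 rows most like it. Cd86, Lck, Zap70, Tcf7, Tnfrsf18, S100a8, Trac, Trbc2, Icosl, Foxp3, Il7r, Cd2, Rpl15, Phactr2 and the class of pseudogene rows were named after their values were seen. Alternatives were other filters, log2(RPM + 1) and log2(RPM + 0.1), median centring, limma voom on recovered reads, a replicate block and leaving out libraries. The transcripts of Gm4294 and Rpl15 in GENCODE M21 were compared by local alignment.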

Additional observations from a re-analysis of the deposited data

Results flagged for a closer look

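In 20 groups of 5 or 6 chondrocyte animals, one per member and genotype, 1 group held an animal far from the others. Il2ra in biallelic animal 6 had 3 reads, or 0.341 RPM, a deposited log2 value of -1.55. The other 5 biallelic animals lay between 0.609 and 0.847 RPM (-0.71 to -0.24 on the log2 scale), on 6 to 12 reads. The gap to the nearest animal was 0.64 of the group's range. With 20 groups examined, 1 such group can arise by chance, at a rate that was not computed.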

How the results depend on the processing

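The number of rows called at P0 was 0 and became 2 with a filter at 1 RPM, 1 with no filter, 1 with median centring and 2 without wild type 2 and biallelic 1, and leaving out 1 library at a time gave 0 to 4, the highest without wild type replicate 3. For the average over the stages 3 rows were called, 5 with log2(RPM + 0.1), 6 without the 4 tongue libraries that stand apart and 3 to 7 when 1 library was left out. For stage differences voom called 1 for P0 minus E13.5, median centring called 1 for P20 minus P0, and single libraries left out gave 0 to 3 for P0 minus E13.5, 0 to 1 for P20 minus P0 and 0 to 3 for P20 minus E13.5. The cause was not tested. No member other than Ctla4 was called under any of these settings. The genotype effect of Ctla4 kept its sign in every setting within each stage and on average; its P0 minus E13.5 difference of 0.12 was -0.18 under log2(RPM + 1).

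The shared replicate numbers did not pair the samples, since same-numbered libraries correlated at -0.52 to 0.25 in their deviations. With the replicate block 0 rows were called at E13.5, P0 and P20 and 3 on average, as without it. At 3 reads per library the CD3 genes, Icos and Cd8a are limited by depth. Alternatives that leave out the wild type animals 7, 8 and 9, the P0 pair or the 4 tongue libraries were chosen after seeing the data.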
